A study of Mus musculus with 4 samples.

Results

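The genes described here are 51 genes with canonical imprints, expressed from the maternal or the paternal chromosome alone in at least some tissues through DNA methylation laid down in the egg or the sperm. They were chosen by name, and all 51 were found by symbol among the 55335 genes measured. The study sequenced RNA from oocytes of C57BL/6 mice, with cDNA made by Smart-Seq2, which copies whole transcripts and suits tiny amounts of RNA. There were 2 control libraries and 2 mutant libraries, whose descriptions carry the prefix MII, the usual abbreviation for the second meiotic metaphase, and call the controls WT. The study's mice, named Ezh2Long and Ezh2Short, have a point mutation at the splice site of *Ezh2* exon 3 that is used alternatively. The labels give the genotype only as control or mutant, and do not say which of these mice gave the mutant oocytes, whether a library is one animal or a pool, or how old the animals were. Since nothing says that libraries came from separate animals, p-values measure the spread between these libraries alone, which may be technical.

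An imprint starts as a stretch of DNA that is methylated in the germ cell of one parent and not in that of the other. It is kept on that parent's chromosome after fertilisation, when most other methylation is erased. The methylated stretch controls a cluster of genes, often through a long noncoding RNA, so that neighbouring genes in a cluster may be expressed from opposite parental chromosomes. Most such stretches gain their methylation in the growing oocyte, where transcription that starts further upstream runs across them. A few, at *H19*-*Igf2*, *Dlk1*-*Meg3* and *Rasgrf1*, gain it in sperm precursors. *Ezh2* encodes the enzyme of the Polycomb complex PRC2, which places H3K27me3, a histone mark that imprints a different set of genes in the oocyte. An oocyte holds maternal chromosomes alone, so the usual expressed allele given below is that of somatic or placental tissue and was not measured here.

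The members fall into 19 clusters. Of these, 16 clusters with 43 members have their germline methylation on the maternal chromosome and 3 clusters with 8 members on the paternal one. By usual expressed allele 26 members are maternal, 23 are paternal, and *Gnas* and *Inpp5f* were grouped apart, since their expressed alleles differ by transcript. Each deposited value covers a whole gene, so transcripts from different promoters cannot be separated. In the annotation 7 pairs of members overlap, 5 of them on opposite strands (*Igf2r* with *Airn*, *Mest* with *Copg2*, *Kcnq1* with *Kcnq1ot1*, *Nnat* with *Blcap*, and *Zrsr1* with *Commd1*). *Snurf* lies within *Snrpn*, and *Mcts2* within *H13*, on the same strand. With all annotated genes included, 37 members are overlapped by another gene, among them the 14 genes of these 7 pairs. *Ube3a*, for example, is overlapped by 6 genes, 5 of them on the opposite strand. The sources used here do not say whether reads were counted by strand. The values of the 14 genes, and of the other members with an overlap, are therefore uncertain.

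The start-site sequences of 4 members are shown, chosen with the values below in view. Whether expression depends on these sequences was not tested. *Zim1* was lower in the mutants and *Peg3* is its nearest cluster partner, *Asb4* was higher in both mutants, and *Nap1l5* was read almost only in 1 mutant library. Each runs 5′ to 3′ on the gene's strand from 250 bases before to 50 bases after the start site (RefSeq, build GRCm38.p6). Capitals mark CG dinucleotides, the sites of DNA methylation. The windows are chr7:6730370-6730669 (minus strand) for *Peg3*, chr7:6696383-6696682 (minus) for *Zim1*, chr6:5383136-5383435 (plus) for *Asb4* and chr6:58907077-58907376 (minus) for *Nap1l5*.
Peg3: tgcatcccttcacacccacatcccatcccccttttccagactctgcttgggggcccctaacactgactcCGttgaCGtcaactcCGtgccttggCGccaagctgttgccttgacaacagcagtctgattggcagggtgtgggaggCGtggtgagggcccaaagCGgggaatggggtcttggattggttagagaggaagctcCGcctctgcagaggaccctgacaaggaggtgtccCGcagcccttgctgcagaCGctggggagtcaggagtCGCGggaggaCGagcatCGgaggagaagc
Zim1: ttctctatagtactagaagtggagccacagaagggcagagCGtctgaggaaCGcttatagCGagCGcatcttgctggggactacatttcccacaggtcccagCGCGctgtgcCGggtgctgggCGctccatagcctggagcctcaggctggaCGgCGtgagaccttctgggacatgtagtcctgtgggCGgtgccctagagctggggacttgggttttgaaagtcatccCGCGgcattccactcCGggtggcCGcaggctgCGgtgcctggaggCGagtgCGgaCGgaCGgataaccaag
Asb4: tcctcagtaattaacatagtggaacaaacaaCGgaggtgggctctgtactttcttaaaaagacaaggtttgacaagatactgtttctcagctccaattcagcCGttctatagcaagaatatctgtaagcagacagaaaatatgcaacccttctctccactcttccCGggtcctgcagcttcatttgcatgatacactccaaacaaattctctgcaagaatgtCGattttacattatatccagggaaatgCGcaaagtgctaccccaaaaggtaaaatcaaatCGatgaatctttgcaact
Nap1l5: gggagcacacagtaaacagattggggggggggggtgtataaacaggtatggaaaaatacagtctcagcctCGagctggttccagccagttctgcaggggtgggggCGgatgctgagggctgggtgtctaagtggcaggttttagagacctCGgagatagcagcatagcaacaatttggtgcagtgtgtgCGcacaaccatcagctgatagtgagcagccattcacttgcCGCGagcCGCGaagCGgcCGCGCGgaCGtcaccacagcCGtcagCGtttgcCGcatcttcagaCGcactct

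The *Zim1* window held 20 CG dinucleotides, *Nap1l5* 17, *Peg3* 13 and *Asb4* 6. The median was 7 over all 32851 windows of 300 bases and 14 over the 59 windows of the 41 members with an entry used here. A window with at least as many CG dinucleotides as *Zim1* was found for 26.5% of all start sites. The hexamer TGCCGC, the letters that the imprint-protecting zinc finger protein ZFP57 reads when methylated, was searched on both strands. It stood in 16 of the 59 member windows (27.1%) and in 11.6% of all windows, with 2 matches at *Nap1l5*, 1 at *Zim1* and 0 at *Peg3* and *Asb4*. These windows are not all distinct: *Snurf* and *Snrpn* share one with a match, and matching windows of *Mest* overlap. The hexamer itself holds a CG, and the shares were not compared at like CG content. *Peg3* and *Usp29* start 147 bases apart on opposite strands, and their windows share 263 bases. A match in the letters is a description, and no methylation was measured.

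The libraries held between 25090032 and 26617816 counts. *Ezh2* itself was at 313 and 239 CPM (counts per 1000000 of the scaled library size) in controls 1 and 2 and at 176 and 223 CPM in mutants 1 and 2, and its adjusted p was 0.219 (edgeR). That level does not check the genotype, since both splice forms are counted together. Oocyte marker genes summed to between 15453 and 16835 CPM in all 4 libraries. The summed 25 markers of cumulus and granulosa cells were at 447 CPM in mutant 1 and between 49.96 and 86.6 CPM in the others, and 20 leukocyte markers were at 282 CPM in mutant 2 and between 44.4 and 60.1 CPM in the others. The 15 markers of stroma, oviduct and epithelium lay between 30.9 and 75.7 CPM, highest in mutant 1. Mutant 1 thus stood out by its cumulus and granulosa sum and mutant 2 by its leukocyte sum, but the kinds were not cleanly split. The stroma, oviduct and epithelium sum was above both controls in mutant 2 as well, at 47.0 CPM. Of 9 tested leukocyte markers 2 passed in edgeR, where 1.77% of all tested genes were called higher. These were *Lyz2* (adjusted p = 0.0437) and *Cd74* (adjusted p = 0.0428), higher in both mutants and highest in mutant 1.

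Of the 51 members 31 had enough counts to be tested, 14 had too few counts and 6 had none. The 6 with 0 counts in every library were *H19*, *Klf14*, *Mkrn3*, *Dlk1*, *Mirg* and *Rtl1*. A count of 0 over the 4 libraries allows a level of up to 0.0286 CPM (3 counts, counting error only). Of the 31 tested members 1 fell and none rose in the mutants (edgeR's quasi-likelihood test over 15493 genes, p adjusted by Benjamini-Hochberg, threshold 0.05), against 3.75% of all tested genes called and 1.98% called lower. The count varied with the method and with the libraries used, as did that of all genes. It was 1 with upper-quartile scaling (3.29% of all genes called), library totals (2.7%), RSEM counts (3.89%) and limma (4.76%), *Zim1* each time, and 1, *Asb4*, where the mean had to reach 10 CPM (9.48%). *Zim1* and *Asb4* both passed with every gene of at least 1 count (5.01%), with the replicate block (7.83%), with DESeq2 (12.9%), at a threshold of 0.10 (11.1%) and without mutant 1 (10.2%). Without mutant 2 (6.02%) *Zim1* passed, and so did *Nap1l5*, which enters that fit through mutant 1 alone and had an adjusted p of 0.0825 with all libraries and no filter (edgeR). None passed in edgeR without control 1 (0.126%) or without control 2 (0.155%), where *Zim1* had log2 fold changes of -4.74 and -4.83. At an unadjusted p under 0.05 in edgeR there were 6 higher members (*Asb4*, *Blcap*, *Gnas*, *Impact*, *Peg10* and *Peg3*) and 1 lower (*Zim1*), where 23% of all tested genes passed. The groups did not overlap for 24 of the 31 members, 14 with the mutants above and 10 with the mutants below. Over all tested genes 54.6% did not overlap. The median log2 fold change was 0.24 over the tested members and 0.05 over all tested genes, with 20 members positive and 11 negative. By size the members lay near the rest: where the mean reached 5 CPM the median size of the log2 fold change was 0.31 over 22 members and 0.31 over 8234 genes. These are descriptions of a named list and carry no test.

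**Figure D1:**
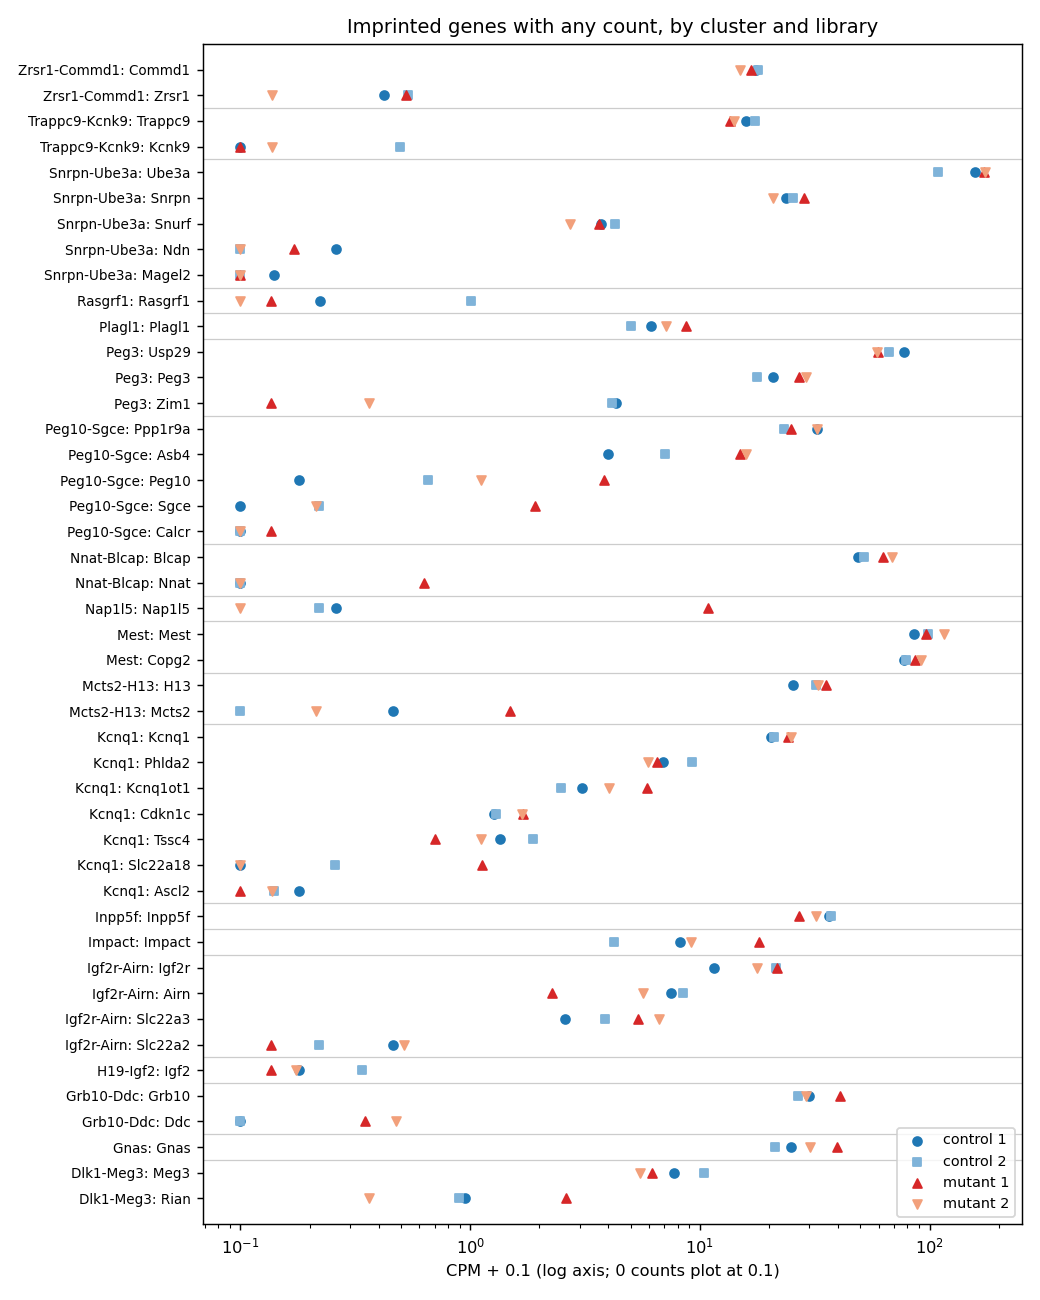
Level of each imprinted gene with any count, in CPM plus 0.1 on a log axis, with 1 symbol per library and genes grouped by cluster. *Ube3a*, *Mest*, *Copg2* and *Usp29* stand highest, *Zim1* is at 4.23 and 4.05 CPM in the controls against 0.0355 and 0.263 CPM in the mutants, and *Nap1l5* is at 10.7 CPM in mutant 1 alone.

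Compared per length, in the deposited TPM (transcripts per 1000000), the oocyte levels were led by 5 members that held 64.3% of the summed TPM of all 51. *Ube3a*, which encodes an E3 ubiquitin ligase, was at 100 and 93.2 TPM in controls 1 and 2 and at 145 and 128 TPM in mutants 1 and 2. *Mest*, which encodes a protein with a hydrolase fold, ranged from 84.3 to 140 TPM, *Commd1*, a COMM domain gene, from 85.4 to 102 TPM, and *Gnas*, the stimulatory G protein alpha subunit, from 66.1 to 135 TPM. The ranges of these 4 overlap, so their order is not resolved. *Blcap* followed at 36.7 to 62.5 TPM and *Usp29*, of the ubiquitin protease family, at 39.3 to 47.0 TPM, again overlapping. *Snrpn*, which encodes an Sm-like splicing protein, lay below at 25.2 to 35.5 TPM. At the other end, the growth factor gene *Igf2* did not exceed 0.84 TPM in any library.

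Summed over the 26 members usually expressed from the maternal chromosome, the level was 334 and 378 TPM in the controls and 439 and 409 TPM in the mutants. The 23 usually paternal members summed to 182 and 206 TPM in the controls and to 251 and 246 TPM in the mutants. Both sums were thus higher in each mutant than in each control. For the maternal sum this rests on *Ube3a*: without it the sum was 234 and 285 TPM in the controls against 294 and 281 TPM in the mutants, which overlap. The ratio of maternal to paternal sum was 1.84 in both controls, 1.75 in mutant 1 and 1.66 in mutant 2. *Mest* and *Usp29* made up between 64.2% and 73.9% of the paternal sum. In the count fit the median log2 fold change was 0.24 over 18 tested maternal members and 0.20 over 11 tested paternal members.

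**Figure D2:**
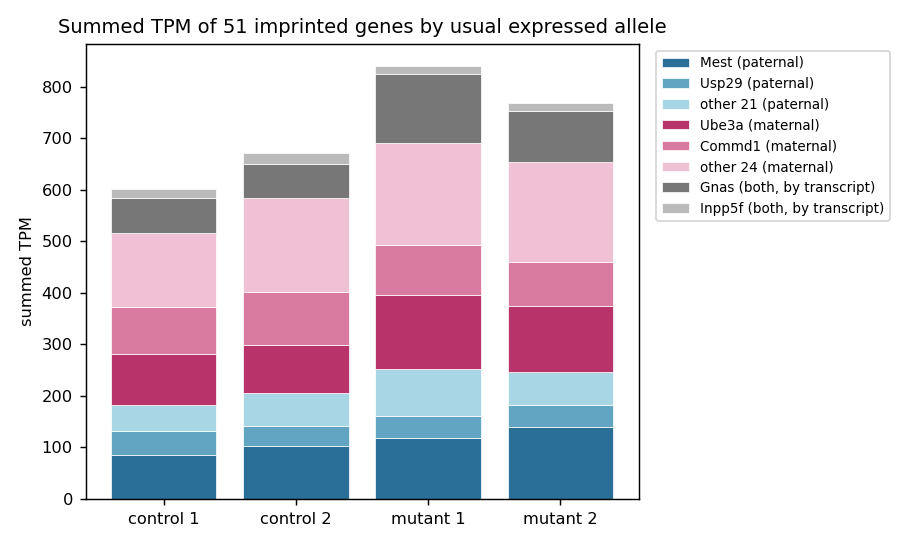
Summed TPM of the 51 genes in each library, stacked by usual expressed allele with the most abundant members drawn apart. Bars reach 601 and 671 TPM in controls 1 and 2 and 841 and 768 TPM in mutants 1 and 2.

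*Zim1*, a zinc finger gene of the *Peg3* cluster usually expressed from the maternal chromosome (chromosome 7, 6671269 to 6696450, mm10), was read 105 and 102 times in controls 1 and 2, but only 1 and 7 times in mutants 1 and 2. This is 4.23 and 4.05 CPM against 0.0355 and 0.263 CPM, with means of 4.14 ± 0.128 and 0.149 ± 0.161 CPM (SD, n = 2 each). Both mutants were far below both controls, and *Zim1* fell 27.2-fold (log2 fold change -4.77, SE 0.825, edgeR adjusted p = 0.0373). In the RSEM expected counts, in which reads that fit several genes are divided between them, it was at 92 and 77 against 1 and 2 (log2 fold change -5.82, adjusted p = 0.0158). The call was lost without control 1 (adjusted p = 0.316) and without control 2 (adjusted p = 0.301), with log2 fold changes of -4.74 and -4.83. The size moved with the mutant library used: the log2 fold change was -3.97 without mutant 1 and -6.69 without mutant 2, and the call held in both fits. No other annotated gene overlaps *Zim1*.

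The usually paternal genes of the same cluster did not pass the test. *Peg3*, which encodes a large zinc finger protein, was at 20.7 and 17.6 CPM in the controls against 26.9 and 28.8 CPM in the mutants (log2 fold change 0.54, SE 0.207, edgeR adjusted p = 0.186). The mutants lay above the controls without overlap. *Usp29* was at 77.6 and 66.7 CPM in the controls against 59.8 and 58.7 CPM in the mutants (log2 fold change -0.28, adjusted p = 0.345). Its matrix counts were 0.598 times its RSEM counts.

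Around *Zim1*, 22 other genes within 1000 kb on either side were tested, and 2 of them passed the threshold (9.09%), both higher in the mutants, against 3.75% of all tested genes called and 1.77% called higher. No test of the difference between these shares was made. These neighbours were picked out after their values were seen. *Zfp28*, a zinc finger gene, was at 0.403 and 0.397 CPM in the controls against 3.16 and 3.01 CPM in the mutants (log2 fold change 2.93, edgeR adjusted p = 0.0415, and adjusted p = 0.0739 with the RSEM counts). The olfactory receptor gene *Olfr1349* was at 8.66 and 9.09 CPM in the controls against 28.8 and 49.8 CPM in the mutants (log2 fold change 2.15, adjusted p = 0.0223). *Zim2*, which lies 8.90 kb from *Zim1*, was at 0.282 and 0.635 CPM against 2.41 and 2.03 CPM (log2 fold change 2.26, adjusted p = 0.0997). The RSEM counts gave *Zim2* a log2 fold change of 0.45 (edgeR adjusted p = 0.835), so its size depends on the table used. None of the tested genes on the far side of *Peg3* passed in edgeR, including *Zim3* (log2 fold change -0.31, adjusted p = 0.368). *Zim3* had few RSEM counts and was not tested with them. Without control 1 and without control 2 neither *Zfp28* (log2 fold changes 2.93 and 2.87) nor *Olfr1349* (2.10 and 2.14) passed the adjusted threshold, at nearly the same fold changes and with an unadjusted p under 0.05 in each of these fits. *Zfp28* was also just outside it without mutant 2 (edgeR adjusted p = 0.0503).

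**Figure D3:**
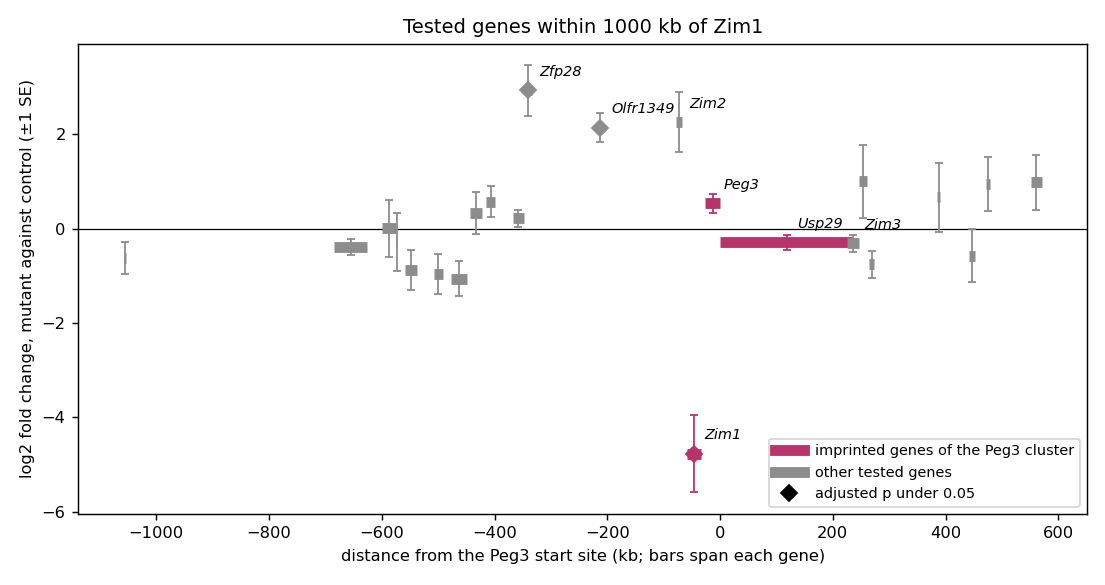
Log2 fold change of each tested gene within 1000 kb of *Zim1*, plotted against distance from the *Peg3* start site, with bars spanning each gene and whiskers of 1 SE. *Zim1* stands at -4.77, below every other gene shown, while *Zfp28*, *Zim2* and *Olfr1349* stand at 2.93, 2.26 and 2.15.

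The *Peg10*-*Sgce* cluster on chromosome 6 held the tested members with the highest fold changes. *Asb4*, usually maternal, encodes a substrate adaptor of a ubiquitin ligase and lies 636 kb from *Peg10*. It was at 3.87 and 6.98 CPM in controls 1 and 2 and at 14.8 and 15.9 CPM in mutants 1 and 2. Both mutants were above both controls, with means of 5.43 ± 2.21 and 15.3 ± 0.738 CPM (SD, n = 2 each). Its log2 fold change of 1.50 had an SE of 0.358, but the difference did not pass the test (edgeR adjusted p = 0.0707). It passed with DESeq2 (adjusted p = 0.00297), and over its alternatives the adjusted p lay between 0.00297 and 0.351. The log2 fold change was 1.53 without mutant 1 and 1.44 without mutant 2. Each of these fits keeps a mutant library with a raised somatic marker sum, and the part of somatic cells in the *Asb4* counts was not tested.

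*Peg10*, a retrotransposon-derived gene needed in placenta, had 2 and 14 counts in the controls against 105 and 27 in the mutants. This is 0.0805 and 0.556 CPM against 3.73 and 1.01 CPM (log2 fold change 2.88, SE 1.03, edgeR adjusted p = 0.163). Its neighbour *Sgce*, the epsilon-sarcoglycan gene that starts 99 bases away on the other strand, had 0 and 3 counts in the controls against 51 and 3 in the mutants. Mutant 1 was thus highest for both. *Ppp1r9a*, which encodes the actin-binding neurabin, lay between 23.2 and 32.4 CPM with overlapping groups (log2 fold change 0.05). *Calcr*, the calcitonin receptor gene, had 1 count in all.

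Mutant 1 stood apart for other weakly read members too, most of them usually paternal. *Nap1l5*, of the nucleosome assembly protein family, had 4 and 3 counts in the controls, 302 in mutant 1 and 0 in mutant 2, which allows up to 0.113 CPM. It was at 10.7 CPM in mutant 1 and at most 0.161 CPM elsewhere, and its low counts in the other libraries kept it from being tested. With no filter on low counts its log2 fold change was 5.20 (edgeR adjusted p = 0.0825). It passed only with mutant 2 left out, where mutant 1 alone brings it past the filter and stands for the mutants, so that this call adds nothing to the counts. *Nap1l5* lies within *Herc3* on the opposite strand, and *Herc3* itself was at 38.3 and 53.1 CPM in the controls against 44.4 and 45.7 CPM in the mutants. *Nnat*, the neuronatin gene, had 15 counts in mutant 1 and 0 in the other libraries. *Mcts2*, a retrogene copied from *Mcts1*, had 9 and 0 counts in the controls against 39 and 3 in the mutants, and the solute carrier gene *Slc22a18* had 0 and 4 against 29 and 0.

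Of 36 members with at least 0.5 CPM in a library, 6 were at least 3 times higher in mutant 1 than in the next library, 1 in control 2 and none in control 1 or mutant 2. Over all 17073 such genes the shares were 6.33% for mutant 1, 0.627% for control 2, 0.779% for control 1 and 3.47% for mutant 2. The multiple of 3 was chosen after the values were seen. Of the 24 cumulus and granulosa markers with counts, 22 were highest in mutant 1 and 2 in control 2. Of the 25 listed 2 had 0 counts in mutant 1, 10 in mutant 2, 8 in control 1 and 14 in control 2. *Gja1*, which joins granulosa cells to each other by gap junctions, reached 99.3 CPM in mutant 1 and no more than 10.9 CPM elsewhere, and *Ptx3*, which encodes a protein of the cumulus matrix, reached 52.7 CPM and no more than 1.77 CPM elsewhere. Not every marker of the list stood so far above in mutant 1. *Cyp19a1*, which encodes the aromatase that makes estrogen, was at 34.2 and 42.5 CPM in the controls against 16.4 and 23.6 CPM in the mutants. *Nr5a2*, a nuclear receptor gene, was highest in mutant 1 at 12.3 CPM, but near it in control 2 at 11.4 CPM. It was lowest in mutant 2 at 7.06 CPM. The part of somatic cells in the counts of *Nap1l5*, *Peg10*, *Sgce*, *Nnat*, *Mcts2* and *Slc22a18* was not tested. Where all RNA of a library is read together, more cells of a type and more RNA per cell cannot be told apart.

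**Figure D4:**
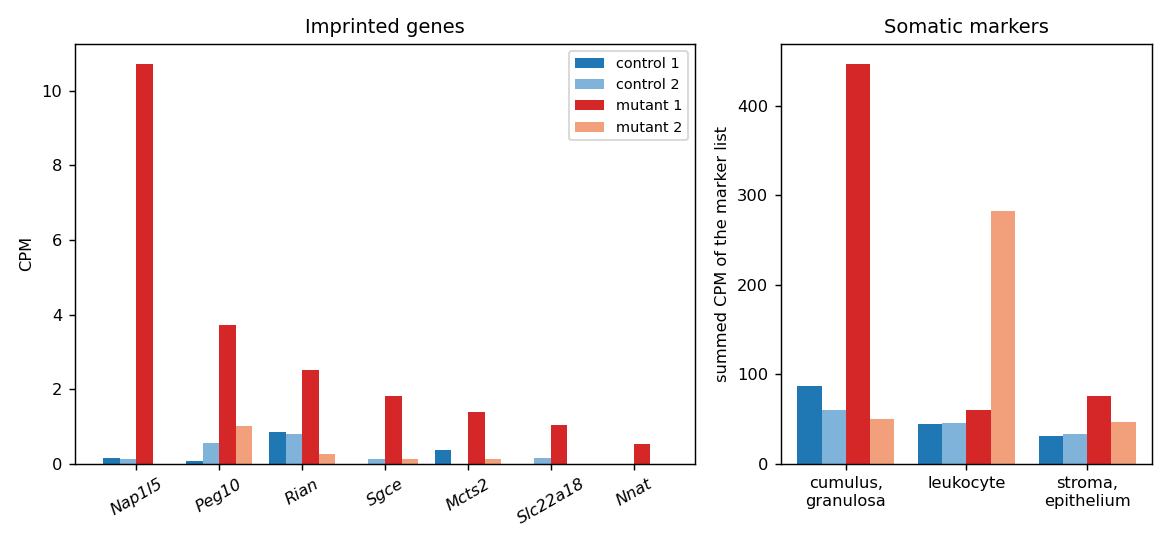
CPM in each library for 7 imprinted genes with their highest value in mutant 1 (left) and summed CPM of 3 somatic marker lists (right), with both axes starting at 0. *Nap1l5* reaches 10.7 CPM in mutant 1, where the cumulus and granulosa list sums to 447 CPM, while the leukocyte list is highest in mutant 2 at 282 CPM.

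At *Igf2r*-*Airn* on chromosome 17, the usually paternal noncoding RNA *Airn* and the gene it silences in somatic cells were compared. *Airn* was at 7.37 and 8.37 CPM in the controls against 2.17 and 5.56 CPM in the mutants (log2 fold change -1.03, SE 0.495, edgeR adjusted p = 0.273). The mutants lay below the controls, with mutant 1 lowest, and the log2 fold change was -1.87 without mutant 2 (adjusted p = 0.0525). *Igf2r*, the receptor that clears IGF2 from the cell surface, was at 11.4 and 21.3 CPM against 21.6 and 17.6 CPM, so its groups overlapped (log2 fold change 0.26, and -0.13 without control 1). The organic cation transporter gene *Slc22a3* was at 2.50 and 3.77 CPM in the controls against 5.29 and 6.54 CPM in the mutants (log2 fold change 0.91, adjusted p = 0.233). *Slc22a2* had between 1 and 11 counts.

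At *Kcnq1* on chromosome 7, the usually paternal noncoding RNA *Kcnq1ot1* was at 2.98 and 2.38 CPM in the controls against 5.79 and 3.91 CPM in the mutants (log2 fold change 0.85, SE 0.417, edgeR adjusted p = 0.279). A log2 fold change of 1.62 came from the RSEM counts (adjusted p = 0.146), and its size thus depends on the table used. The channel gene *Kcnq1*, which it overlaps, was at 20.4 and 20.9 CPM against 24.1 and 24.7 CPM (log2 fold change 0.24, adjusted p = 0.516). For both genes the mutants lay above the controls without overlap, and neither difference passed. *Phlda2*, which restrains placental growth, was at 6.81 and 9.17 CPM in the controls against 6.43 and 5.86 CPM in the mutants (log2 fold change -0.38). *Cdkn1c*, an inhibitor of cyclin-dependent kinases, had 29 and 30 counts in the controls against 45 and 42 in the mutants (log2 fold change 0.43, adjusted p = 0.683). *Tssc4* had 31 and 45 counts against 17 and 27 (log2 fold change -0.90, adjusted p = 0.431), and *Ascl2*, a placental transcription factor gene, had 4 counts in all.

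At *Snrpn*-*Ube3a* the neighbouring genes *Ube3a* and *Snrpn* were abundant, and *Ndn*, *Magel2* and *Mkrn3*, further along the chromosome, were almost silent. *Ube3a* was at 158 and 109 CPM in the controls against 173 and 175 CPM in the mutants (log2 fold change 0.38, SE 0.200, edgeR adjusted p = 0.312). *Snrpn* was at 23.6 and 25.4 CPM against 28.3 and 20.7 CPM, with no separation of the groups (log2 fold change 0.00, SE 0.230). *Snurf*, read from the same transcripts, was listed at 0 in the RSEM counts of every library and at 70 to 105 counts in the matrix. *Ndn* had 6 counts in all, *Magel2* 1 and *Mkrn3* 0.

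*Mest* and its neighbour *Copg2*, a vesicle coat gene, share 912 bases on opposite strands. *Mest* was at 85.3 and 98.5 CPM in the controls against 96.1 and 116 CPM in the mutants (log2 fold change 0.20, edgeR adjusted p = 0.522). *Copg2* was at 77.2 and 78.6 CPM against 86.1 and 91.5 CPM (log2 fold change 0.19, adjusted p = 0.482). With the RSEM counts, which gave *Copg2* 646 and 571 counts in the controls in place of 1918 and 1981, its log2 fold change was -0.04, so its direction is not settled.

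Among the single-gene domains, *Impact*, which encodes an inhibitor of the GCN2 kinase, was at 8.13 and 4.13 CPM in the controls against 17.9 and 9.05 CPM in the mutants (log2 fold change 1.14, SE 0.470, edgeR adjusted p = 0.215). *Plagl1*, a zinc finger transcription factor gene, was at 6.00 and 4.92 CPM against 8.63 and 7.02 CPM (log2 fold change 0.52, adjusted p = 0.402). For both genes the mutants lay above the controls, and neither passed. The log2 fold change of *Impact* was 0.54 without mutant 1.

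*Gnas* was at 24.9 and 21.2 CPM in the controls against 39.3 and 30.2 CPM in the mutants (log2 fold change 0.59, SE 0.222, edgeR adjusted p = 0.178). Its alternative first exons give products of opposite parental origin in other tissues, and they are summed here. *Inpp5f*, an inositol phosphatase gene, was at 36.2 and 37.1 CPM in the controls against 27.0 and 31.8 CPM in the mutants (log2 fold change -0.32, adjusted p = 0.365).

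Several members are host genes whose intron holds an imprinted retrogene or a small paternal gene. *Blcap*, the host of *Nnat*, was at 48.6 and 51.9 CPM in the controls against 62.7 and 68.7 CPM in the mutants (log2 fold change 0.39, edgeR adjusted p = 0.215). *H13*, which encodes signal peptide peptidase and holds *Mcts2*, lay at 25.4 and 31.9 CPM against 35.2 and 32.6 CPM (log2 fold change 0.24). *Commd1*, the host of *Zrsr1*, was at 17.5 and 17.8 CPM against 16.6 and 14.8 CPM (log2 fold change -0.17), and *Zrsr1* had at most 12 counts in a library. The hosts were thus read in every library at 14.8 CPM or more, while their guests had few counts outside mutant 1.

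*Grb10*, an adaptor that dampens insulin receptor signalling, was at 29.6 and 26.6 CPM in the controls against 40.6 and 29.0 CPM in the mutants (log2 fold change 0.31, edgeR adjusted p = 0.477), so the groups overlapped. Its neighbour *Ddc*, which encodes dopa decarboxylase, had 0 counts in both controls and 7 and 10 in the mutants, at least 5.18-fold higher against a floor of 3 counts over the control group. It had too few counts to be tested. *Trappc9*, which encodes a subunit of a vesicle tethering complex, was at 15.8 and 17.3 CPM against 13.4 and 14.0 CPM (log2 fold change -0.27), and its neighbour *Kcnk9* had 10 counts in control 2 and at most 1 elsewhere.

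In the clusters methylated in sperm, *Meg3*, *Rian* and *Rasgrf1* carried most of the counts. The noncoding RNA *Meg3* was at 7.65 and 10.3 CPM in the controls against 6.11 and 5.37 CPM in the mutants (log2 fold change -0.64, SE 0.326, edgeR adjusted p = 0.296). *Rian*, which hosts small nucleolar RNAs downstream of *Meg3*, had 21 and 20 counts in the controls against 71 and 7 in the mutants, so the mutants lay on both sides of the controls. *Rasgrf1*, a Ras exchange factor gene, had 3 and 23 counts in the controls against 1 and 0 in the mutants. *Igf2* had 2 and 6 against 1 and 2. The 2 last genes had too few counts to be tested.

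**Figure D5:**
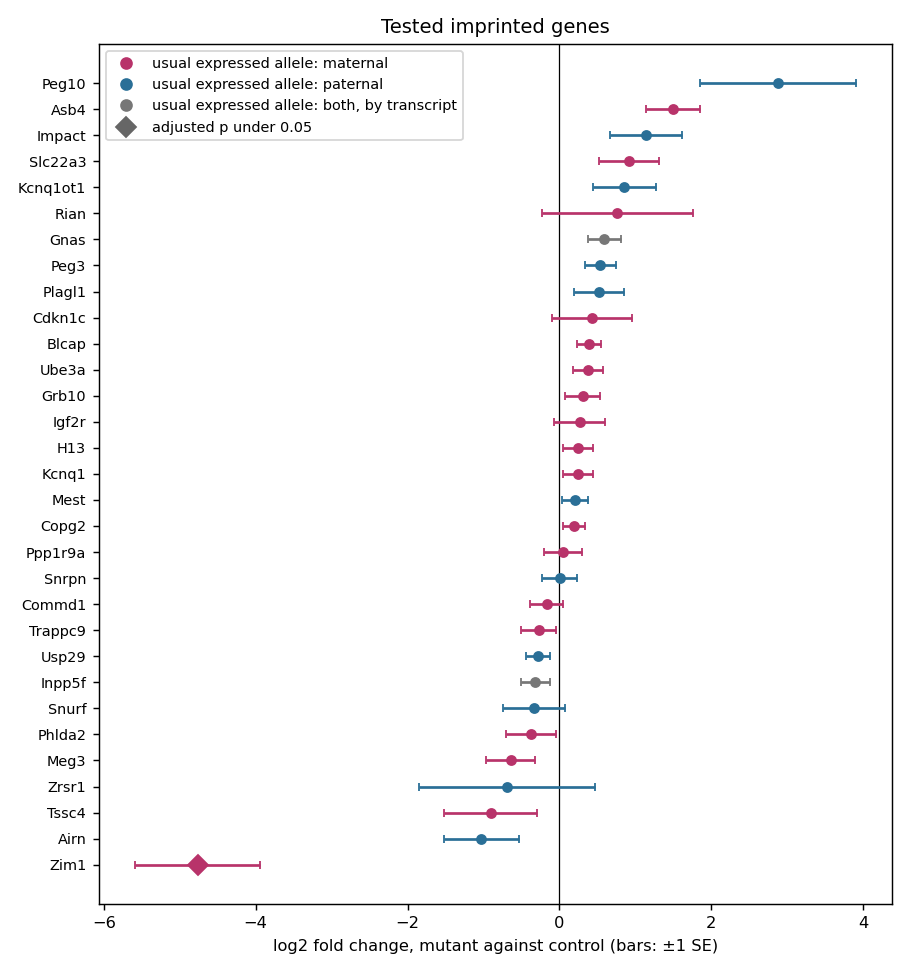
Log2 fold change of mutant against control for the 31 tested imprinted genes, ordered by value, with whiskers of 1 SE and colours for the usual expressed allele. *Zim1* at -4.77 is the 1 gene past the threshold, and both colours lie on both sides of 0.

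Of 30 genes that write, protect or erase imprints, 28 were tested and none passed in edgeR. At an unadjusted p under 0.05 there were 6 of 28 (21.4%), near the 23% of all tested genes. With DESeq2 3 passed (10.7%, against 12.9% of all genes), higher in the mutants (*Dnmt3a*, *Tet3* and *Zfp445*), and none with limma. Their log2 fold changes had a median of 0.11, and 15 were positive and 13 negative. The maintenance methyltransferase gene *Dnmt1* was at 1316 and 1733 CPM in the controls against 1491 and 1506 CPM in the mutants (log2 fold change -0.02, edgeR adjusted p = 0.954). *Tet3*, which encodes an oxidising enzyme of methylated cytosine, was at 894 and 1139 CPM against 1503 and 1452 CPM (log2 fold change 0.54, adjusted p = 0.134). *Zfp57*, which protects imprints after fertilisation, was at 624 and 777 CPM against 703 and 659 CPM (log2 fold change -0.04). *Nlrp2*, a maternal-effect gene, was at 215 and 240 CPM against 299 and 281 CPM (log2 fold change 0.35, adjusted p = 0.212).

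Of 43 further genes with reported imprinting, 42 were found and 27 tested, and 1 passed, higher in the mutants, where 1.77% of all tested genes were called higher. This was *Cobl*, an actin nucleator gene beside *Grb10*, at 24.1 and 17.8 CPM in the controls against 43.8 and 70.4 CPM in the mutants (log2 fold change 1.45, SE 0.287, edgeR adjusted p = 0.0496). The groups did not overlap, and the call was lost without control 1 and without control 2. *Nap1l4*, *Zim3* and *Herc3*, the other most abundant of these genes in the matrix, had log2 fold changes of -0.23, -0.31 and -0.02 and did not pass. The level of *Zim3* rests on the matrix alone: its summed RSEM counts were 23.2 in the controls and 5.45 in the mutants. With DESeq2 3 of the 27 passed, all higher in the mutants (*Cobl*, *Osbpl5* and *Tsix*), where 12.9% of all genes were called. With limma *Cobl* alone passed. At an unadjusted p under 0.05 in edgeR there were 7 higher and 1 lower, where 23% of all tested genes passed. The list's median was 0.48, with 19 members positive and 8 negative.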

How the data were processed

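RNA of mouse oocytes was measured in 4 libraries, grouped by their titles. The authors deposited whole-number counts per gene with no normalization, and per library expected counts, TPM, FPKM (not tested) and lengths in bases, in the RSEM form per the file headers. Reads went through cutadapt 1.16, STAR and RSEM on mm10, per the submitters' processing notes. How the matrix was counted is not stated there. RSEM values were rounded to whole numbers for an alternative test.

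The test was edgeR 4.0.16 in R 4.3.3 (TMM, filterByExpr, glmQLFit, glmQLFTest, genotype only, 2 residual degrees of freedom), adjusted over 15493 genes. The SE is the fold change divided by the square root of F. CPM uses TMM-scaled sizes. On simulated counts of this comparison with 15033 genes tested, recovery was 8% for 2-fold, 48% for 4-fold, 98% for 8-fold and 100% for 16-fold changes. The changed genes had a mean of at least 5 CPM, and all genes were drawn at 1 common dispersion (coefficient of variation 0.353). Most 2-fold changes were out of reach in that setting. Recovery was not simulated for changes in weaker genes, such as *Zim1* with a mean of 2.14 CPM, or for genes that vary more or less. Alternatives used DESeq2 1.42.0, limma 3.58.1, other scalings and filters, a replicate block and each library left out. GENCODE M21 gave mm10 positions, matching 55154 of 55335 IDs without version. Described in full were members past the threshold or with 5 CPM on average or in any library, and otherwise the most counted of a cluster. The members, lists and rule were chosen with earlier results of these data known. The oocyte marker H1f8 and the imprinted gene Nespas matched no symbol.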

Additional observations from a re-analysis of the deposited data

How the results depend on the processing

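With 2 libraries a group, the count of calls moved with most choices. Over all genes 581 passed, and 1322 with every gene of at least 1 count, 1993 with DESeq2, 1213 with the replicate block, 1721 at an adjusted p under 0.10, and between 22 and 1688 with a library left out, the lowest counts without a control (22 without control 1, 27 without control 2; 1688 without mutant 1, 1025 without mutant 2). Among the imprinted genes 1 passed. The number was 2 (*Zim1* and *Asb4*) with every gene of at least 1 count, DESeq2, the replicate block and an adjusted p under 0.10. With a library left out it lay between 0 and 2. None passed in edgeR without control 1 or control 2, where 22 and 27 of all genes passed. *Zim1* and *Asb4* passed without mutant 1. *Zim1* and *Nap1l5* passed without mutant 2, where *Nap1l5* enters through mutant 1 alone. With a mean of 10 CPM required, where *Zim1* was not tested, *Asb4* passed. The median log2 fold change of the tested members, 0.24, was 0.33 with library totals and between 0.17 and 0.31 with a library left out, and it was positive under every alternative run.

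*Zim1* kept a negative log2 fold change in 11 of 11 alternatives (-6.69 to -3.97) and passed in 9. *Asb4* kept a positive one in 12 of 12 (1.12 to 1.94) and passed in 5. Of 292 single-gene values 11 changed sign, in 4 genes, none past the threshold in any fit: *Igf2r* (-0.13 without control 1, to 0.73 with another library left out), *Copg2* (-0.0441 with RSEM counts), *Ppp1r9a* (-0.21 without control 2 and -0.16 without mutant 2, to 0.30) and *Snrpn* (-0.0053 with every gene of at least 1 count, -0.0135 with the replicate block, -0.0127 with DESeq2, -0.0141 with limma, -0.0379 with RSEM counts, and -0.26 to 0.20 with a library left out). The causes were not tested. Nothing says whether libraries with the same number are paired. Control 1 and mutant 1 deviated from their group means with a correlation of 0.18 over 15493 genes, which does not settle it. Where a fit leaves 1 library in a group, that library is assumed to vary like the others.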

Other observations

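The count matrix and the RSEM counts differed widely for some imprinted genes. How each assigned its reads was not examined. *Copg2* had 3.495 times as many counts in the matrix as in RSEM over the 4 libraries, and *Ppp1r9a* 1.99 times. *Gnas*, *Usp29*, *Commd1* and *Mest* had 0.530, 0.598, 0.666 and 0.686 times as many. Library totals in the matrix were 1.06 to 1.076 times the RSEM totals. *Zim3*, which overlaps *Usp29*, had 1498 and 1213 matrix counts in the controls, 1229 and 1171 in the mutants, against summed RSEM counts of 23.2 and 5.45. Levels of these genes therefore depend on the table used, while the fold changes of *Gnas*, *Usp29* and *Mest* (0.59, -0.32 and 0.28 with the RSEM counts) lay close to those of the matrix.

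*Asb4* had 8 other tested genes within 1000 kb on either side. None passed in edgeR, and 2 (25%) were under an unadjusted p of 0.05, near the 23% of all tested genes. Their median log2 fold change was 0.94, against 0.05 over all tested genes, and no test of this difference was made. With DESeq2 1 passed, the mitochondrial carrier gene *Slc25a13* (12.5%, against 12.9% of all genes). Of the 8, *Casd1* and *Pon2* had 13 and 14 counts in control 1, 0 in control 2, 84 and 74 in mutant 1 and 30 and 33 in mutant 2.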
